A study of Rattus norvegicus with 10 samples.

Results

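The TGF-beta system was described in the rat dentate gyrus 3 weeks after traumatic brain injury (TBI), from the genes of its ligands (Tgfb1, Tgfb2 and Tgfb3), a latency protein (Ltbp1), its receptors (Tgfbr1, Tgfbr2 and Tgfbr3) and its Smads (Smad2, Smad3 and Smad7). These 10 genes are a named list selected on the bulk difference of Tgfb1, which stood at rank 2 of the 14166 genes measured in bulk when genes were ordered by the p of TBI against sham. All 10 were present in the bulk table and in the nucleus matrices. Since the bulk contrast led to the list, the bulk values of its genes are given as a description, with counts of calls only beside those of all genes, and the comparison in nuclei, made in other rats, was tested. The animals were young adult male Sprague Dawley rats, and every library came from the dentate gyrus, in rats with surgery on the side of the craniectomy. TBI rats received a lateral fluid percussion injury (LFPI), a pressure pulse of fluid onto the intact dura. Sham rats had the craniectomy and anesthesia without the pulse, and the naïve rat had no surgery. Bulk RNA-seq covered 3 TBI and 3 sham rats, and single-nucleus RNA-seq (snRNA-seq) covered 2 TBI rats against 1 sham and 1 naïve rat, which the study joined as the control group.

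TGF-beta proteins are secreted in a latent form. The mature dimer stays enclosed in its own propeptide, which is held by a latent TGF-beta binding protein such as Ltbp1 in the matrix, or by a membrane partner such as Nrros on microglia, until integrins or proteases release it. Free ligand binds the type II receptor encoded by Tgfbr2, which recruits and phosphorylates the type I receptor encoded by Tgfbr1, while betaglycan (Tgfbr3) presents ligand to the pair and is needed most for TGF-beta 2. The activated receptor phosphorylates Smad2 and Smad3, which enter the nucleus with Smad4, and Smad7 is the induced inhibitor that closes the loop. In the brain the pathway is known for keeping microglia in their homeostatic state and for its part in astrocyte reactivity and scar matrix.

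Tgfb1 and Tgfbr1 were both highest in microglia-like nuclei and Tgfb2 in astrocyte-like nuclei, as described below. For these 3 genes the bases before the transcription start are shown. They are the 250 bases upstream of the RefSeq start in build GRCr8, written in the sense of the gene, on chromosome 1 for Tgfb1 (chr1:90324062-90324311, plus strand), chromosome 13 for Tgfb2 (chr13:100792686-100792935, minus strand) and chromosome 5 for Tgfbr1 (chr5:66449148-66449397, plus strand). Capitals mark matches on either strand to a GC box (GGGCGG), an AP-1 site (TGANTCA), an E-box (CACGTG) or a TATA box (TATAAA).
Tgfb1: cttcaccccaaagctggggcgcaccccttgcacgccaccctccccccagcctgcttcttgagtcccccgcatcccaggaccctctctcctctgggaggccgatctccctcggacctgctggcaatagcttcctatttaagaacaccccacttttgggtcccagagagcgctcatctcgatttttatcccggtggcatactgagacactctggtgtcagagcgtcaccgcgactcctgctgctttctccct
Tgfb2: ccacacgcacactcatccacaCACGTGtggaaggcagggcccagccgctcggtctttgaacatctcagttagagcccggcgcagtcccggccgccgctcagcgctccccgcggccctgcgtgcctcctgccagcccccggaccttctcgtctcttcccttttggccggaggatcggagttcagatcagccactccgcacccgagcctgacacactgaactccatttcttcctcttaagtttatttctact
Tgfbr1: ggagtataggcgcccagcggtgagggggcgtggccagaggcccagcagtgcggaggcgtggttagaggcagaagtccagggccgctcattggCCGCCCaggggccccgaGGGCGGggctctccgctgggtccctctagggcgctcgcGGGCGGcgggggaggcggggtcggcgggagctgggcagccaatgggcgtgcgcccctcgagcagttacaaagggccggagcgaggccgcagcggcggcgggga
The 3 windows held 60.0%, 61.6% and 75.6% G or C. Tgfbr1 held 3 GC boxes, beginning 158, 141 and 103 bases before the start, Tgfb2 held 1 E-box 229 bases before it, and Tgfb1 held none of the 4 motifs. Among the 33469 promoters of the same length, 30.5% held a GC box, 6.34% an AP-1 site, 5.59% an E-box and 12.9% a TATA box. A match is a string of letters in this window and was not tested as a binding site.

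The bulk libraries held 24730290 to 43912297 gene counts and the nucleus libraries 11285 to 16931 nuclei, with medians of 1647 to 2652 unique molecular identifiers (UMIs) per nucleus. Levels are given as counts per 1000000 counts of the sample (CPM), which compare 1 gene between samples or classes and not different genes with each other. Some bulk libraries stood apart in their makeup. The summed level of 18 oligodendrocyte markers was 19574 CPM in sham replicate 2 and 5860 to 9174 CPM in the other 5 libraries. The summed level of 10 fibroblast markers was 883 CPM in TBI replicate 3 and 62.5 to 201 CPM elsewhere, and that of 14 pericyte markers was 672 CPM there against 174 to 246 CPM. The 16 endothelial markers summed to 923 CPM in the same library and to 490 to 567 CPM elsewhere. The 19 microglial markers measured summed to 544 to 606 CPM in sham and to 1054 to 1868 CPM in TBI, and 17 of the 19 were higher in TBI at an unadjusted edgeR p under 0.05. The sum of the 19 astrocyte markers measured did not overlap either, at 7069 to 7822 CPM in sham and 10126 to 13127 CPM in TBI. Taken singly, 12 of the 19 had all TBI libraries above all sham libraries, against 11.7% of all genes. At that p 5 of the 19 were higher, against 8.2% of all genes, and their median Log2FC was 0.24. Of 14 granule neuron markers, which define the labelled tissue, 12 were measured, and they summed to 2455 to 3233 CPM in sham and 2394 to 2769 CPM in TBI. More cells of a type and more RNA per cell cannot be told apart in bulk tissue. In nuclei, 314 cell barcodes occurred in more than 1 library, and 1.63% to 27.4% of the stored matrix entries were zeros, the most in TBI replicate 2.

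Tgfb1 was the ligand that differed between the groups. Its level was 10.7, 11.6 and 10.5 CPM in sham replicates 1, 2 and 3 and 23.5, 37.8 and 28.7 CPM in TBI replicates 1, 2 and 3. All TBI libraries lay above all sham libraries, which spread over about 1 CPM. The Log2FC was 1.42 ± 0.19 (SE), a 2.68-fold higher level. Injuries were performed in spring and autumn, and the difference of mean log2 CPM was 1.08 among the spring rats (1 TBI, 2 sham) and 1.65 among the autumn rats (2 TBI, 1 sham). Microglial markers moved with Tgfb1. Per 1000 CPM of summed microglial markers, a ratio chosen after the values were seen, Tgfb1 was at 19.7, 19.1 and 18.2 in sham and at 22.3, 20.2 and 25.3 in TBI. The groups did not overlap on that scale either, and the distance between them was far smaller. Over all nuclei of the other rats the same ratio, with 20 markers, was 13.7 and 10.7 in TBI, and both control rats lay between these values. On the same scale Tgfbr1 was at 71.2, 93.7 and 46.5 in sham and at 58.7, 41.2 and 43.2 in TBI, with overlap. The Tgfbr2 groups overlapped on it as well. The part of microglial cell number in the Tgfb1 difference was not tested.

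Tgfb2 and Tgfb3, the other ligands, had overlapping groups. Tgfb2 was measured at 18.3 to 34.3 CPM in sham and 28.7 to 33.9 CPM in TBI, and Tgfb3 at 12.5 to 26.9 CPM in sham and 18.9 to 25.7 CPM in TBI. Their Log2FC values were 0.27 ± 0.21 and 0.07 ± 0.28 (SE). Ltbp1, which ties the latent complex to the matrix, was at 2.89, 3.67 and 1.57 CPM in sham and at 5.22, 3.30 and 16.6 CPM in TBI. A single library, TBI replicate 3, carried its high mean. The Log2FC of Ltbp1 was 1.59 ± 0.62 (SE) with all libraries and 0.63 ± 0.42 without TBI replicate 3, the library with the high fibroblast, pericyte and endothelial marker sums. The part of those cells in the value was not tested.

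The signalling receptors were higher on average in TBI, each with some overlap. Tgfbr2, the ligand-binding type II receptor, was at 7.69, 13.2 and 7.47 CPM in sham and at 12.6, 23.0 and 20.3 CPM in TBI. Sham replicate 2 lay above TBI replicate 1, and the Log2FC was 0.94 ± 0.30 (SE). Tgfbr1, the type I kinase, was at 38.7, 56.8 and 26.7 CPM in sham and at 61.8, 77.0 and 49.1 CPM in TBI. Here too 1 sham library exceeded 1 TBI library, with a Log2FC of 0.59 ± 0.28 (SE). In both genes sham replicate 2, the library rich in oligodendrocyte markers, was the highest of its group. Tgfbr3, betaglycan, was at 18.1, 21.4 and 21.3 CPM in sham and at 22.4, 22.9 and 48.0 CPM in TBI. Its groups did not overlap, yet TBI replicates 1 and 2 exceeded the highest sham library by less than 2 CPM. The Log2FC was 0.57 ± 0.29 (SE) with all libraries and 0.13 ± 0.14 without TBI replicate 3, and the part of the endothelial and mural cells marked there was not tested.

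The Smads showed no common shift in bulk. Smad2 was nearly level, at 19.6 to 22.8 CPM in sham and 21.0 to 24.8 CPM in TBI, with a Log2FC of 0.04 ± 0.12 (SE). Smad7, the inhibitory Smad, ranged from 19.3 to 30.4 CPM in sham and from 22.1 to 24.7 CPM in TBI, and its Log2FC was −0.07 ± 0.18 (SE). Smad3 spread further than any other of the 10 genes within sham. It was at 110.0, 27.9 and 21.2 CPM in sham and at 95.8, 37.6 and 76.5 CPM in TBI. The highest library of all was a sham library, and the Log2FC of 0.37 ± 0.63 (SE) became 1.46 ± 0.38 when sham replicate 1 was left out. The granule neuron marker sums, given above, varied far less between libraries than Smad3 did. In 8 genes of the 10, Smad3 and Tgfb1 among them, the bulk gene count equalled the count of a single transcript in the deposited transcript table, as it did for 68.9% of all genes. Tgfb2 and Smad2 were the exceptions. Whether other Smad3 transcripts are missing from its values was not tested.

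**Figure D1:**
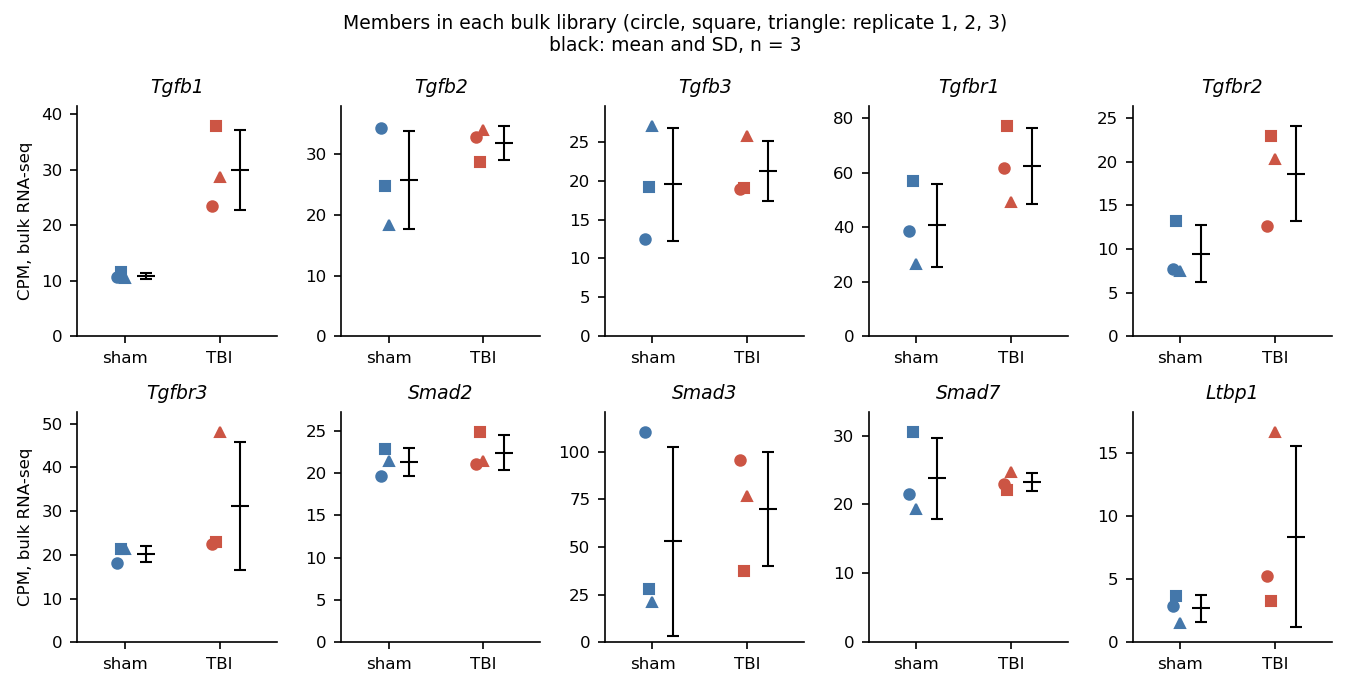
CPM (y axis, linear, from 0) of the 10 genes in the 3 sham (blue) and 3 TBI (red) bulk libraries, with 1 symbol per replicate number and the mean and SD (n = 3) in black. Tgfb1 sat between 23.5 and 37.8 CPM in all TBI libraries and between 10.5 and 11.6 CPM in sham, while the Ltbp1 and Tgfbr3 means in TBI were raised by replicate 3 and Smad3 ranged from 21.2 to 110.0 CPM in sham.

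At a false discovery rate (FDR) of 0.05, edgeR called 0 of the 10 genes and 0% of the 14166 genes tested, and 3 of the 10 (Tgfb1, Tgfbr2 and Ltbp1) were higher at an unadjusted p under 0.05, as were 8.2% of all genes. DESeq2 called 1 of the 10, Tgfb1, and 2.47% of all genes at the same FDR. The TBI libraries lay above all sham libraries for 2 of the 10 genes and for 11.7% of all genes. None of the 10 had all TBI libraries below sham, where 3.05% of all genes stood. The median Log2FC of the 10 was 0.47, against −0.0029 for all genes. Because the list was built around this contrast, these counts are not evidence about it.

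Beyond the named genes, 72 other genes of the pathway were followed in 5 lists, of which 69 were measured in bulk. edgeR called 0 of the 69 at an FDR of 0.05. At an unadjusted p under 0.05, 24 were higher in TBI (8.2% of all genes) and 2 were lower (1.4% of all genes), and DESeq2 called 8 at an FDR of 0.05, each of them higher. The median Log2FC over the 69 was 0.44. Without TBI replicate 3, 17 were higher and 0 lower at that p, against 5.74% and 0.466% of all genes, and the median was 0.24. The higher genes numbered 13 when sham replicate 3 was left out and 11 when the fit held the season of surgery as a term. The counts lay mostly in the target list and in the microglial list.

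Classical TGF-beta target genes held large differences, and much of their size came from a single library. Of 19 targets measured, 12 were higher at an unadjusted p under 0.05 and 0 were lower, with a median Log2FC of 1.11 that dropped to 0.48 without TBI replicate 3, where 8 were higher. Timp1, an inhibitor of matrix proteases, was at 1.59 to 2.64 CPM in sham and at 3.96, 5.36 and 9.40 CPM in TBI replicates 1, 2 and 3, a Log2FC of 1.61 ± 0.38 (SE). Id3, a transcriptional inhibitor induced by the BMP and TGF-beta families, was at 26.2 to 40.1 CPM in sham and at 46.7, 72.4 and 67.4 CPM in TBI (Log2FC 0.82 ± 0.21). In nuclei 68.1% of Id3 UMIs lay in the astrocyte-like class, and the summed astrocyte markers were also higher in bulk TBI, whose part was not tested. Each TBI library lay above every sham library in both genes, which was a condition for naming a gene of these lists. The collagen genes met the same condition, with very unequal values. Col1a1, a chain of fibrillar collagen I, was at 5.90 to 14.5 CPM in sham and at 41.2, 15.3 and 283 CPM in TBI, and its partner chain Col1a2 was at 5.92 to 15.5 CPM and at 66.5, 17.2 and 408 CPM. Col3a1, the collagen III chain, was at 4.01 to 9.46 CPM in sham and at 27.3, 9.70 and 183 CPM in TBI. Acta2, smooth muscle actin, was at 11.1 to 19.0 CPM in sham and at 37.7, 24.3 and 243 CPM in TBI. In all 4 genes TBI replicate 3 was many times the other libraries, as it was for the fibroblast markers, and the part of fibroblasts or mural cells was not tested.

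Most of the genes that microglia are known to keep up under TGF-beta signalling were higher in TBI, beside higher microglial markers in general. Of 7 measured, 5 were higher at an unadjusted p under 0.05 and 0 lower, with a median Log2FC of 0.88, against a median of 1.14 for the 19 general microglial markers. P2ry12, the purinergic receptor of resting microglia, was at 10.7 to 12.9 CPM in sham and at 20.6, 40.0 and 16.8 CPM in TBI (Log2FC 1.11 ± 0.32, SE). Slc2a5, a fructose transporter of microglia, was at 7.67 to 8.49 CPM in sham and at 13.5, 23.7 and 14.2 CPM in TBI (Log2FC 1.05 ± 0.23). Gpr34 had a Log2FC of 0.88 ± 0.26, P2ry13 of 0.77 ± 0.30 and Olfml3 of 1.57 ± 0.48 (SE), the last at 0.79 ± 0.26 without TBI replicate 3. For all 5 genes the TBI libraries lay above all sham libraries, which was a condition for naming them and not a result.

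The remaining lists lay closer to 0. Among 17 genes of latency and activation, 4 were higher at an unadjusted p under 0.05 and 0 lower, with a median Log2FC of 0.36. Mmp2, a gelatinase, was at 5.56 to 9.28 CPM in sham and at 12.3, 16.5 and 12.7 CPM in TBI (Log2FC 0.94 ± 0.23, SE), and Emilin1, an elastic fibre protein that holds back TGF-beta processing, had a Log2FC of 1.07 ± 0.34, and of 0.55 ± 0.18 without TBI replicate 3. Of 8 other receptors, 1 was higher. It was Eng, endoglin, an endothelial co-receptor, with a Log2FC of 0.39 ± 0.14 (SE). Of 18 Smads and regulators, 2 were higher and 2 were lower, with a median Log2FC of 0.02. Bambi, a decoy receptor, had a Log2FC of 0.85 ± 0.32 at no more than 3.03 CPM. The lower genes were Usp15, a deubiquitinase acting on the receptor complex, with a Log2FC of −0.28 ± 0.09, and Zfyve9, the Smad anchor SARA, with −0.32 ± 0.13 (SE).

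**Figure D2:**
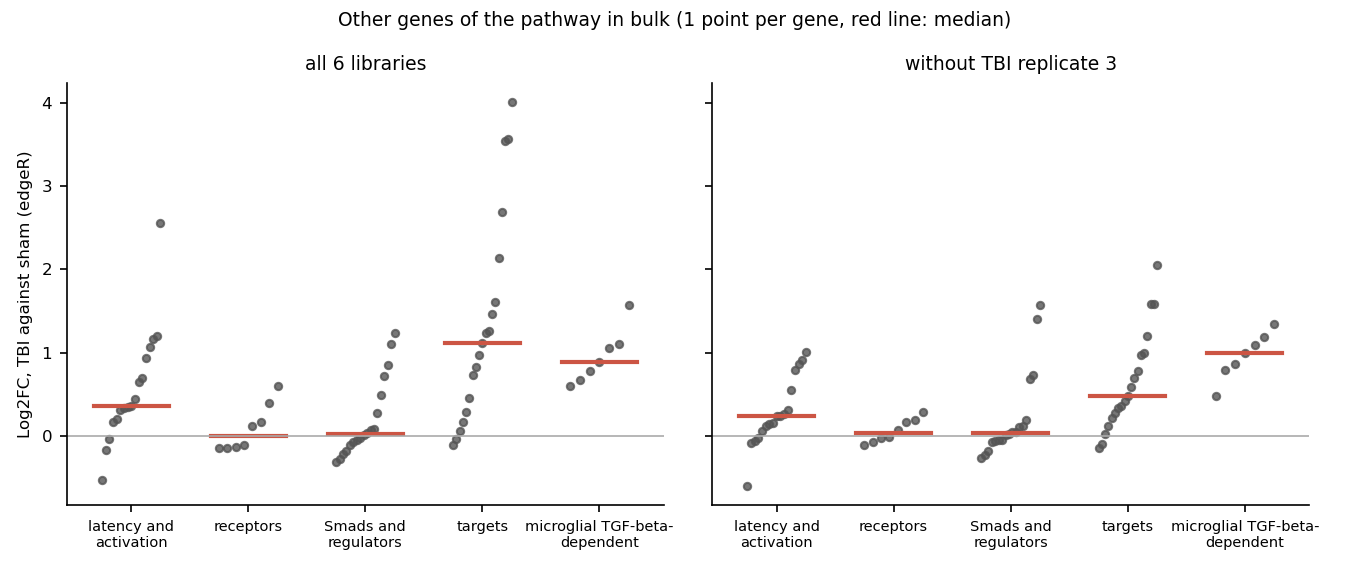
Log2FC of TBI against sham in bulk (y axis) for each measured gene of the 5 pathway lists, 1 point per gene and a red line at the list median, with all 6 libraries on the left and without TBI replicate 3 on the right. The target list's median moved from 1.11 to 0.48 and the microglial list's from 0.88 to 0.99.

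The nuclei showed where each gene was expressed. The 55124 nuclei kept were assigned to 9 classes from 96 marker genes, none of them a gene of the TGF-beta list, and 46636 received a class. Of 46 further markers not used for the assignment, 41 were highest in their own class. The classes held 30027 granule neuron-like, 4394 astrocyte-like, 2766 oligodendrocyte precursor-like, 2707 microglia-like, 2689 oligodendrocyte-like, 2244 GABAergic neuron-like, 1365 other glutamatergic neuron-like, 340 endothelial-like and 104 pericyte-like nuclei. The exceptions were Vtn and Ndufa4l2, pericyte markers that were higher in the endothelial-like class, Calb2 and Drd2 of the other glutamatergic neuron-like class, and Slc17a7 of the granule neuron-like class. Only 1 of 3 further markers was thus highest in its own class for the pericyte-like and for the other glutamatergic neuron-like nuclei, and their levels are less certain. Neuronal transcripts were present in every class. Over 9 neuronal markers, the median level in non-neuronal classes ran from 36.8% of the granule neuron-like level in endothelial-like nuclei to 69.0% in astrocyte-like nuclei, so a gene near these shares of its granule neuron-like level cannot be told apart from free neuronal RNA. All levels by class are means over the 4 rats, a description without a test.

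Each ligand had its own leading class. Tgfb1 was highest in microglia-like nuclei at 105 ± 43.4 CPM (SD, n = 4 rats), followed by endothelial-like nuclei at 67.6 ± 19.2 CPM and pericyte-like nuclei at 23.9 ± 18.7 CPM. The ranges of the first pair overlapped over rats. Every other class lay at 4.44 CPM or less, with granule neuron-like nuclei at 0.785 ± 0.498 CPM. Microglia-like nuclei made up 4.91% of nuclei and 2.09% of UMIs and held 269 of the 567 Tgfb1 UMIs, or 47.4%. By rat this share was 37.7% and 60.0% in TBI replicates 1 and 2, 29.0% in sham and 62.3% in naïve. Among nuclei with at least 1000 UMIs the microglia-like level was 68.5 CPM and the endothelial-like level 61.8 CPM.

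Tgfb2 followed another pattern, led by astrocyte-like nuclei at 139 ± 24.0 CPM (SD), above the next class in all 4 rats. Oligodendrocyte precursor-like nuclei followed at 90.8 ± 2.65 CPM, pericyte-like nuclei at 89.9 ± 34.2 CPM and granule neuron-like nuclei at 58.1 ± 7.35 CPM, and neighbours in this order overlapped. Other glutamatergic neuron-like nuclei were lowest at 13.8 ± 7.46 CPM. Because granule neurons were so numerous, they held 54.3% of Tgfb2 UMIs against 24.5% in astrocyte-like nuclei. Tgfb3 was low everywhere, at 9.13 ± 4.82 CPM in other glutamatergic neuron-like nuclei and 8.79 ± 1.71 CPM in granule neuron-like nuclei, which did not differ beyond their spread, and at 3.14 to 4.96 CPM in all other classes.

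Ltbp1 was highest in endothelial-like nuclei, at 286 ± 32.4 CPM (SD). Pericyte-like nuclei followed at 97.3 ± 76.2 CPM and astrocyte-like nuclei at 19.0 ± 5.53 CPM, each class above the next in all 4 rats. The pericyte-like values came from only 3 and 5 UMIs in TBI, 1 in sham (25.7 CPM) and 9 in naïve, so its place in this order is uncertain. No other class exceeded 3.82 CPM. Endothelial-like nuclei were 0.617% of nuclei and held 26.9% of Ltbp1 UMIs, beside 28.7% in the astrocyte-like and 24.2% in the granule neuron-like class, which were far more numerous. Nrros, the membrane partner of latent TGF-beta 1 in microglia, was at 130 CPM in microglia-like nuclei, while Lrrc32, a partner of the same kind, had 0 UMIs there and 17.1 CPM in endothelial-like nuclei. With 2687645 UMIs in the class, 0 UMIs of Lrrc32 is a statement on detection at this depth.

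The receptor pair was also highest in microglia-like nuclei on average, though not for Tgfbr2 once shallow nuclei were left out. Tgfbr1 was at 95.0 ± 41.5 CPM (SD) in microglia-like nuclei, above the next class in all 4 rats, and at 21.3 ± 11.2 CPM in endothelial-like and 12.2 ± 2.70 CPM in granule neuron-like nuclei. Tgfbr2 was at 200 ± 72.2 CPM in microglia-like, 154 ± 59.0 CPM in endothelial-like, 112 ± 61.3 CPM in pericyte-like and 73.4 ± 50.2 CPM in oligodendrocyte-like nuclei, with overlap between neighbours. Among nuclei with at least 1000 UMIs the microglia-like levels were lower, 55.2 CPM for Tgfbr1 and 101 CPM for Tgfbr2, and Tgfbr2 was then highest in endothelial-like nuclei at 159.5 CPM. Tgfbr2 was nearly missing from neurons, at 1.96 ± 1.13 CPM in granule neuron-like nuclei. Tgfbr3 was the most even of the receptors, at 155 ± 44.1 CPM in endothelial-like nuclei and between 39.2 and 89.9 CPM in all other classes. Its granule neuron-like level was 70.1 ± 3.02 CPM, and it stood at 56.0% and 66.1% of that level in microglia-like and oligodendrocyte-like nuclei, where the neuronal markers were at 67.7% and 57.6%.

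Among the Smads, Smad3 was highest in granule neuron-like nuclei at 345 ± 73.9 CPM (SD), where 75.9% of its UMIs lay. Microglia-like nuclei followed at 271 ± 58.7 CPM, overlapping over rats, which is 78.8% of the granule neuron-like level against 67.7% for the neuronal markers there. By rat, Smad3 stood at 74.8% and 79.8% in TBI replicates 1 and 2, 62.1% in sham and 103.7% in naïve. The neuronal markers stood at 78.7%, 73.8%, 74.7% and 50.9% in the same order. Astrocyte-like nuclei stood at 181 ± 67.8 CPM, or 52.4% of the granule neuron-like level, below the 69.0% of the neuronal markers. Other glutamatergic and GABAergic neuron-like nuclei held far less, at 43.0 ± 23.3 CPM and 63.8 ± 20.4 CPM. Smad2 was higher in microglia-like (97.4 ± 22.3 CPM, or 60.1 CPM at 1000 UMIs or more) and endothelial-like nuclei (94.3 ± 25.4 CPM) than in the other classes, at 26.3 to 66.8 CPM. Smad7 was at 110 ± 31.8 CPM in oligodendrocyte-like, 105 ± 54.5 CPM in microglia-like and 87.5 ± 16.4 CPM in endothelial-like nuclei, 3 classes that overlapped, and at 22.7 ± 1.65 CPM in granule neuron-like nuclei.

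**Figure D3:**
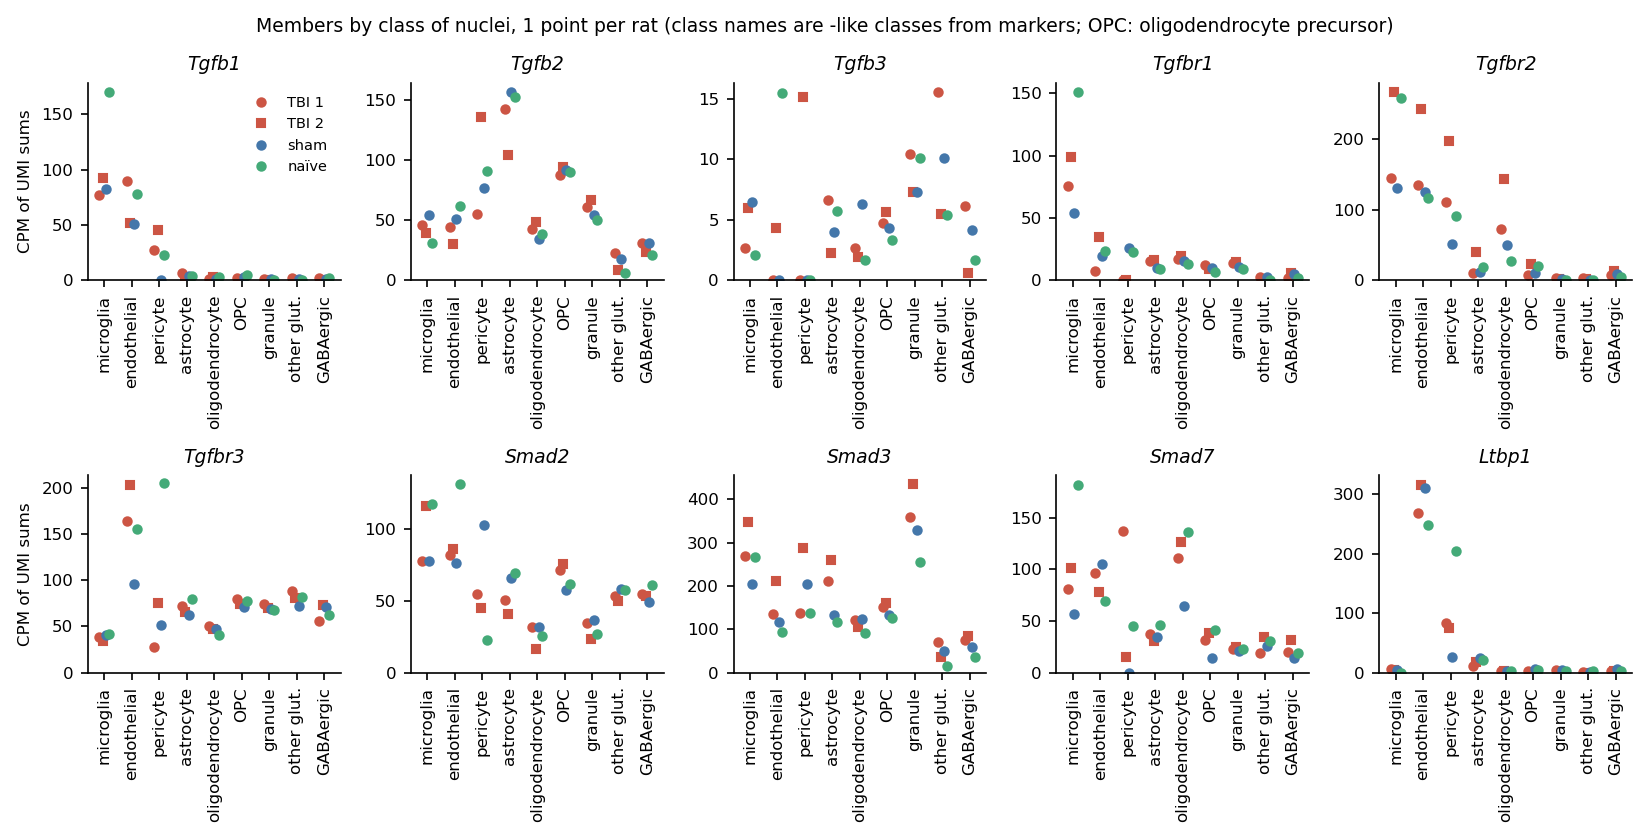
CPM of summed UMIs (y axis, linear, from 0, own scale in each panel) of the 10 genes in the 9 marker-defined classes, 1 point per rat (TBI red, sham blue, naïve green). Tgfb1, Tgfbr1 and Tgfbr2 led in microglia-like nuclei (105, 95.0 and 200 CPM on average), Tgfb2 in astrocyte-like (139 CPM), Smad3 in granule neuron-like (345 CPM) and Ltbp1 in endothelial-like nuclei (286 CPM). Among nuclei with at least 1000 UMIs the first 3 were at 68.5, 55.2 and 101 CPM, and Tgfbr2 was led by endothelial-like nuclei.

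The genes most like Tgfb1 over the 36 sums of class by rat were Pik3r6 (Pearson r = 0.94), Anxa3 (0.92), Fli1 (0.91), Slco2b1 (0.90) and Tec (0.90), of 11320 genes with at least 500 UMIs. For Tgfb2 they were Sdc2 (0.91), Csgalnact1 (0.90), Ttyh1 (0.87), Nckap5 (0.86) and Peli2 (0.86). Tgfbr1 had looser neighbours, Prpf38b (0.82), Lamp2 (0.80), Dmtf1 (0.79), Pip4p1 (0.78) and Golph3 (0.78). The 9 classes of a rat share its library and free RNA, so these correlations describe the pattern only.

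For TBI against control in nuclei, edgeR tested 60 pairs of a TGF-beta gene and a class and called 0 of them at an FDR of 0.05. In each of the 9 classes, and over all nuclei together, 0% of the 897 to 15959 genes tested were called. At an unadjusted p under 0.05 there were 4 of the 60 pairs, against 2714 of 78491 over all genes (3.46%). No gene of the list was tested in the pericyte-like class. In simulated sums edgeR recovered 3.13% of changes of Log2FC 1 in the microglia-like class and 31.6% in the astrocyte-like class. A pair that was not called is therefore not evidence of an unchanged level.

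Tgfb1 within microglia-like nuclei did not pass the test between TBI and control. It was at 76.9 and 92.3 CPM in TBI replicates 1 and 2, at 82.5 CPM in the sham rat and at 170 CPM in the naïve rat, from 57, 93, 38 and 81 UMIs. The TBI and sham rats lay within each other's exact 95% counting intervals (58.2 to 99.6, 74.5 to 113 and 58.4 to 113 CPM), and the naïve rat stood above them at 135 to 211 CPM. These intervals cover counting error only. Neuronal RNA in the class also differed between rats. The summed level of the neuronal markers there was lowest in the naïve rat, at 3442 CPM. It was 5612 and 4736 CPM in TBI replicates 1 and 2 and 6135 CPM in sham. The part of neuronal RNA in the Tgfb1 values of the class was not tested. The Log2FC was −0.61 ± 0.35 (SE, edgeR FDR 0.998), and it was −0.0077 ± 0.32 without the naïve rat and −1.01 ± 0.28 without the sham rat (edgeR FDR 0.998 and 0.279). Over all nuclei together, Tgfb1 was at 4.65 and 5.94 CPM in TBI and at 3.71 CPM in sham and 3.74 CPM in naïve, with a Log2FC of 0.44 ± 0.33 (SE, edgeR FDR 0.982). Microglia-like nuclei were 5.10% and 7.94% of nuclei in the TBI rats, 2.98% in sham and 3.73% in naïve, and 2.28%, 3.86%, 1.31% and 1.37% of UMIs. The class was assigned by markers that were themselves higher in bulk TBI, so its share is a description. That share moved with the Tgfb1 level over all nuclei, and its part in that level was not tested. Outside the class Tgfb1 was at 2.96 and 2.47 CPM in TBI, 2.67 CPM in sham and 1.43 CPM in naïve.

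**Figure D4:**
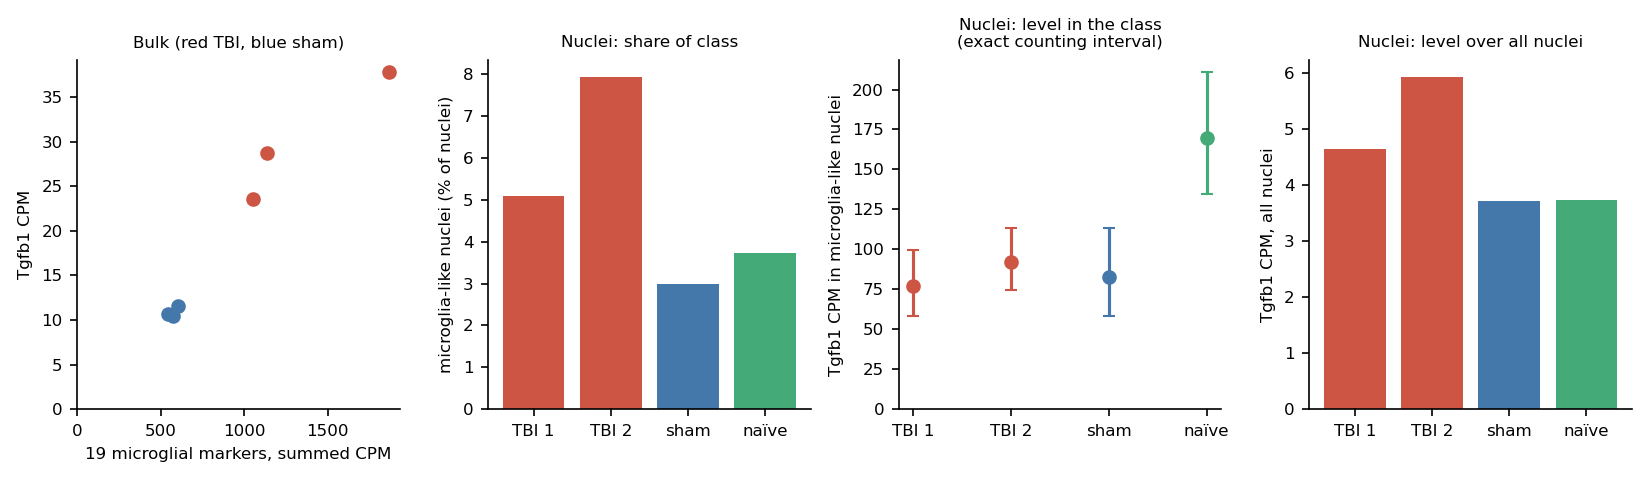
Tgfb1 in bulk against the summed CPM of 19 microglial markers (left), and in nuclei the share of microglia-like nuclei, the Tgfb1 CPM within them with exact 95% counting intervals, and the Tgfb1 CPM over all nuclei, for TBI (red), sham (blue) and naïve (green) rats; bars start at 0. In bulk both measures were higher in the 3 TBI libraries, and in nuclei the class share and the overall Tgfb1 level were higher in both TBI rats while the level within the class, 76.9 and 92.3 CPM, lay on both sides of the sham rat and below the naïve rat.

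Smad3 had the smallest p of the list, in astrocyte-like nuclei. It was at 212 and 261 CPM in the TBI rats and at 134 CPM in sham and 116 CPM in naïve, so that both TBI rats lay well above both controls. The Log2FC was 0.85 ± 0.17 (SE), with an edgeR FDR of 0.229, while DESeq2 gave an FDR of 0.014 in a class where it called 3.41% of 4845 genes. Neuronal RNA in the same nuclei moved in the same direction. The median level of the 9 neuronal markers, relative to the granule neuron-like nuclei of the same rat, was 76.6% and 96.4% in TBI and 55.6% and 50.7% in control, and Smad3 relative to its own granule neuron-like level was 59.0% and 60.1% against 40.8% and 45.3%. Summed over the 9 markers, the level was 5155 and 5059 CPM in TBI, 4786 CPM in sham and 3950 CPM in naïve, a smaller difference. Nefl, which is among the 9, was itself highest in astrocyte-like nuclei. The part of neuronal RNA in the Smad3 value was not tested. In granule neuron-like nuclei Smad3 was at 359 and 435 CPM in TBI, 328 CPM in sham and 256 CPM in naïve, with a Log2FC of 0.39 ± 0.20 (SE, edgeR FDR 0.9998). GABAergic neuron-like nuclei had 74.7 and 83.5 CPM in TBI against 60.2 and 36.7 CPM, a Log2FC of 0.66 ± 0.27 (SE, edgeR FDR 0.999). In oligodendrocyte-like nuclei the groups overlapped, at 121 and 106 CPM in TBI and 124 and 90.8 CPM in control.

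Other genes of the list in astrocyte-like nuclei went both ways. Smad2 was at 50.5 and 40.8 CPM in TBI and at 66.2 and 69.6 CPM in sham and naïve, a Log2FC of −0.64 ± 0.19 (SE, edgeR FDR 0.291). Tgfb2, the astrocyte ligand, was at 142 and 104 CPM in TBI and at 157 and 152 CPM in control (Log2FC −0.39 ± 0.18, edgeR FDR 0.455). Ltbp1 was at 11.8 and 17.9 CPM in TBI against 24.7 and 21.6 CPM (Log2FC −0.70 ± 0.31, edgeR FDR 0.426), and Tgfbr1 at 15.3 and 16.4 CPM against 9.76 and 9.05 CPM (Log2FC 0.69 ± 0.30, edgeR FDR 0.427). For each of these genes both TBI rats lay on the same side of both control rats, which is frequent without a difference at these rat numbers. Smad2, Tgfb2 and Ltbp1 stood at 186%, 239% and 662% of their granule neuron-like level in this class. The neuronal markers there, relative to granule neuron-like nuclei, were higher in TBI, as given for Smad3. The part of neuronal RNA in the values of these genes was not tested. The astrocyte-like class as a whole had many small p values, 6.67% of its genes higher and 5.45% lower at an unadjusted p under 0.05, and the list had 1 gene of 10 in each direction.

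Tgfbr2 depended on 1 rat. In oligodendrocyte-like nuclei it was at 72.9 and 143 CPM in the TBI rats and at 50.7 and 26.9 CPM in sham and naïve, a Log2FC of 1.37 ± 0.41 (SE, edgeR FDR 0.9996). Over all nuclei it was at 10.7 and 29.3 CPM in TBI and at 9.27 and 8.62 CPM in control, with a Log2FC of 1.09 ± 0.46 (SE, edgeR FDR 0.982). TBI replicate 2 was the highest rat in microglia-like, endothelial-like, pericyte-like, oligodendrocyte-like, astrocyte-like and oligodendrocyte precursor-like nuclei. In microglia-like nuclei the naïve rat was close to it, at 258 CPM against 266 CPM, with 144 CPM in TBI replicate 1 and 130 CPM in sham. In endothelial-like nuclei, the leading class of Ltbp1, that gene was at 269 and 316 CPM in TBI and at 309 and 248 CPM in sham and naïve, a Log2FC of 0.02 ± 0.29 (SE, edgeR FDR 0.999). Tgfb1 overlapped there as well, at 89.6 and 51.9 CPM in TBI and 51.1 and 77.6 CPM in control. Tgfbr3 was at 164 and 203 CPM in TBI against 96.5 and 155 CPM, with a Log2FC of 0.59 ± 0.37 (SE, edgeR FDR 0.999). In granule neuron-like nuclei Tgfb2 was at 61.3 and 66.8 CPM in TBI and at 54.1 and 50.3 CPM in control, a Log2FC of 0.23 ± 0.18 (SE, edgeR FDR 0.9998). The remaining pairs, among them Tgfbr3, Smad7 and Tgfb3 in every class tested, had an unadjusted p above 0.05.

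**Figure D5:**
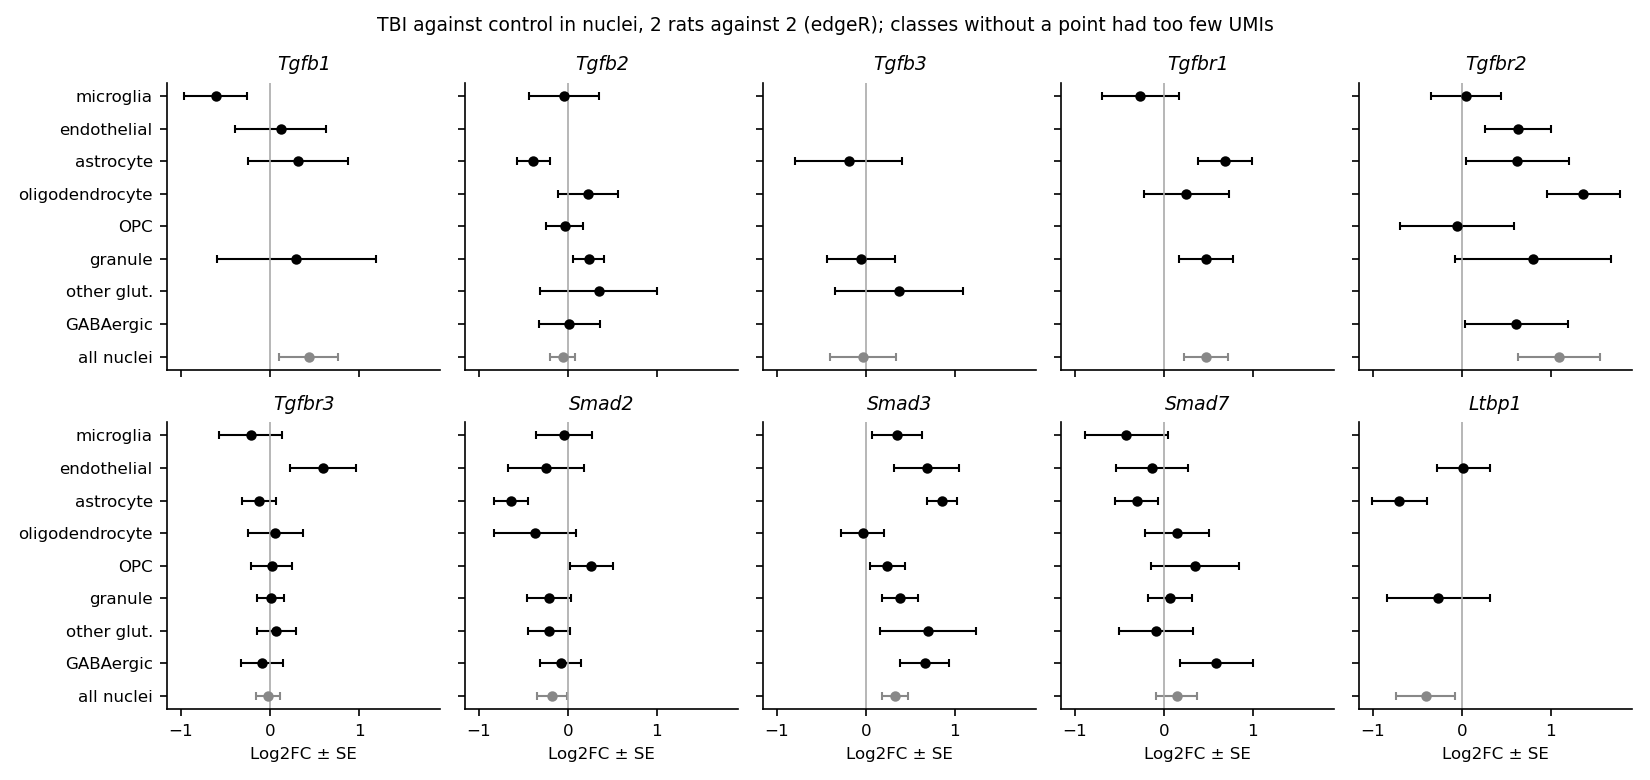
Log2FC ± SE (x axis) of TBI against control for the 10 genes by class, from edgeR on UMI sums of 2 rats against 2, with all nuclei together in grey and no point where a gene had too few UMIs to be tested. Smad3 in astrocyte-like nuclei (0.85 ± 0.17) and Tgfbr2 in oligodendrocyte-like nuclei (1.37 ± 0.41) lay farthest from 0 relative to their errors, and Tgfb1 in microglia-like nuclei lay at −0.61 ± 0.35.

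Of the 5 pathway lists, 275 pairs of gene and class were tested in nuclei, and edgeR called 0 at an FDR of 0.05. At an unadjusted p under 0.05, 7 were higher and 8 lower, where 3.46% of the pairs over all genes had such a p in either direction. Astrocyte-like nuclei held 3 of the higher and 5 of the lower pairs, of 41 genes tested there. In that class 6.67% of all genes were higher and 5.45% lower at the same p. All 8 are named here, which was decided with their values known. The higher genes were the type I receptors Acvr1 (Log2FC 0.56 ± 0.17, edgeR FDR 0.291) and Acvr1b (0.71 ± 0.23, FDR 0.314) and the microfibril gene Fbn1 (0.54 ± 0.16, FDR 0.291). Among the lower genes were Bmpr1a, a BMP type I receptor (−0.58 ± 0.16, edgeR FDR 0.258), and Timp3, a protease inhibitor (−0.39 ± 0.16, FDR 0.384). The others were integrin subunits. Itgav was at 59.2 and 58.7 CPM in TBI and at 92.1 and 85.8 CPM in sham and naïve (Log2FC −0.66 ± 0.16, edgeR FDR 0.242). Itgb8 was at 80.0 and 100.3 CPM against 131 and 141 CPM (Log2FC −0.66 ± 0.17, edgeR FDR 0.244), and Itgb1 at 63.3 and 66.0 CPM against 85.1 and 112 CPM (Log2FC −0.68 ± 0.19, edgeR FDR 0.26). Both TBI rats lay below both control rats in each of them, which is frequent without a difference at these rat numbers. The part of neuronal RNA in these astrocyte-like values was not tested. In microglia-like nuclei, 3 of 35 pathway genes tested were lower and 0 higher at that p. In that class 2.39% of all genes had such a p in either direction. Id3 is named here, which was decided with its values known. Id3 was at 8.09 and 7.94 CPM there in TBI and at 21.7 and 31.4 CPM in control (Log2FC −1.75 ± 0.56, edgeR FDR 0.998), while in bulk it was higher in every TBI library. These levels rest on few UMIs, as the class held 460836 to 1007900 UMIs per rat. Id3 lay mostly in astrocyte-like nuclei, and the part of free RNA was not tested. The microglial genes Sall1, a transcription factor of homeostatic microglia, and Slc2a5 had Log2FC values of 0.0096 ± 0.39 and −0.42 ± 0.36 within the class (SE, edgeR FDR 0.998 for both).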

How the data were processed

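Bulk poly(A) RNA-seq and 10x 3' snRNA-seq of the dentate gyrus, ipsilateral in rats with surgery, were analysed. For bulk, the authors mapped reads with Kallisto and deposited estimated counts per transcript and log2 CPM per gene after filters on low abundance and low variance. The deposited log2 values were log2 CPM of counts raised by 0.5, and this was inverted to whole gene counts for the count tests. Of 14166 genes, 13778 were named by the RefSeq table of GRCr8. For nuclei, the authors deposited UMI counts per gene from Cell Ranger on Rnor_6.0. Nuclei were kept at the study's limits of 500 UMIs, 300 genes, a log10 ratio of genes to UMIs of 0.8, 5% mitochondrial and 2% ribosomal UMIs. The sources used here do not say why the matrices store zeros, so the counts may have been corrected before deposit, to a different degree in each library.

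Nuclei with at least 3 markers of a class and 2 more than of any other served as seeds. A multinomial model with the seeds' marker shares and frequencies then assigned each nucleus when the odds reached 99 to 1 with at least 3 marker UMIs, and 8486 nuclei lay within a factor of 10 of that limit. A fibroblast class was not formed (0 seeds). No doublet caller was used. UMIs were summed per rat and class.

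Groups came from the labels. edgeR 4.0.16 (TMM, quasi-likelihood F test, Benjamini-Hochberg over all genes of a fit, SE as |Log2FC|/√F) gave the main results, with filterByExpr in nuclei, and DESeq2 1.42.0 and limma 3.58.1 served as alternatives. The edgeR and DESeq2 fits were tested on simulated data for bulk and for the astrocyte-like and microglia-like sums. At a simulated Log2FC of 1, up or down, edgeR recovered 64%, 31.6% and 3.13% of the changed genes, in that order. DESeq2 recovered 60%, 20% and 4%. At a Log2FC of 2 edgeR recovered 99%, 93.8% and 64.5%. Each library is 1 rat. Genes named from the pathway lists had an unadjusted p under 0.05 in bulk with groups that did not overlap, at most 6 per list by p. Exceptions were those said to be chosen after their values were seen. Nrros, Lrrc32 and Sall1 did not meet this rule and were named outside it. The named genes, pathway lists, markers and tests were chosen with earlier results of these data known.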

Additional observations from a re-analysis of the deposited data

Results flagged for a closer look

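In several genes every TBI rat lay on one side of every control rat in 1 class of nuclei and on the other side in another, and these differences between classes were not tested. Tgfb2 had Log2FC values of −0.39 ± 0.18 (SE) in astrocyte-like, 0.22 ± 0.33 in oligodendrocyte-like and 0.23 ± 0.18 in granule neuron-like nuclei. Smad2 had −0.64 ± 0.19 (SE) in astrocyte-like, −0.22 ± 0.23 in other glutamatergic neuron-like and 0.26 ± 0.24 in oligodendrocyte precursor-like nuclei. Tgfbr3 had −0.22 ± 0.35 (SE) in microglia-like, 0.059 ± 0.31 in oligodendrocyte-like, 0.59 ± 0.37 in endothelial-like and 0.011 ± 0.15 in granule neuron-like nuclei. Many of these values lay within 1 or 2 SE of no change.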

How the results depend on the processing

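The count of TGF-beta genes called in bulk at an FDR of 0.05 was 0 with edgeR and under limma, RLE, library totals only, filterByExpr, the surgery period as a covariate and every library left out in turn, and 1 (Tgfb1) with DESeq2, which called 349 genes in all. With the replicate number as a block it was also 1 (Tgfb1, Log2FC 1.40 ± 0.15), of 61 genes called. Same-numbered sham and TBI libraries had correlations of their deviations of 0.38, 0.21 and −0.03, and sham replicate 3 was most like TBI replicate 2 (0.12), so the numbers were not taken as pairs. Pathway genes higher at an unadjusted p under 0.05 numbered 24, 11 with the period as a covariate and 13 to 25 with 1 library left out. Those without sham replicate 3 were the 13. Pathway genes lower numbered 2, and 1 with limma, with library totals only and with the period, and 0 to 3 with 1 library left out. In nuclei, the pairs called numbered 0, and 1 with DESeq2 (Smad3 in astrocyte-like nuclei, Log2FC 0.87) and 2 without the low-count filter (that pair, FDR 0.00016, and Tgfbr2 in oligodendrocyte-like nuclei, FDR 0.045). DESeq2 called 165 genes in all in astrocyte-like nuclei. Without the filter edgeR called 567 genes there and 17 in oligodendrocyte-like nuclei. For the Smad3 pair the FDR ran from 0.00016 to 0.57 over the alternatives. The Log2FC of Tgfbr2 over all nuclei was 1.65 ± 0.35 (SE) without TBI replicate 1 and 0.18 ± 0.40 without TBI replicate 2. Each of these fits rests on 1 TBI rat, and replicate 2 was the rat with the high level, 29.3 CPM. Of the 10 leading classes, 8 to 10 stayed the same over the alternatives, the exceptions being Tgfb3, Smad2, Smad7 and, at 1000 UMIs per nucleus, Tgfbr2. The bulk Log2FC of Tgfb3, Smad2, Smad3 and Smad7 changed sign under at least 1 alternative, and that of Tgfb1 ran from 1.19 to 1.57. Low UMI numbers limited the microglia-like, endothelial-like and pericyte-like values.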
